A study of Homo sapiens with 6 samples.

Results

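Bone morphogenetic proteins (BMPs) are secreted ligands that bring type I and type II receptor kinases together on the cell surface. The activated receptors phosphorylate SMAD1, SMAD5 and SMAD9, which join the common partner SMAD4 and bind DNA next to target genes. Among the best known targets are the homeobox genes MSX1 and MSX2, the ID genes, which code for helix-loop-helix proteins that hold back bHLH transcription factors, and the feedback inhibitors SMAD6, SMAD7 and BAMBI. In the intestine, BMP signalling is known to limit stem cell renewal and to favour differentiation.

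The 10 genes described here are MSX1, MSX2, ID1, ID2, ID3, SMAD6, SMAD7, SMAD9, BAMBI and BMP4. They were picked by name out of the 58735 genes of the count table, all 10 had enough counts to be tested, and the set was drawn up with the result of MSX1 in this comparison known. Their differences between the groups are therefore given as a description, with no p-value. Where a member is said to be past the threshold of the fit over all genes, this only sorts the members and is not evidence about them. The study compared a stable CNOT7 knockdown made with shRNA against control cells. CNOT7 is a deadenylase subunit of the CCR4-NOT complex, and the paper's aim was to learn how it affects sensitivity to radiotherapy. The labels name the colorectal cancer line SW480, whereas the paper describes this experiment in HCT116, another colorectal cancer line. Total RNA was sequenced from 3 libraries labelled CNOT7 control and 3 labelled CNOT7 knockdown, none of them treated. The series text speaks of one stable knockdown line, the shRNA carried by each library is not named, and nothing states that the libraries came from separate cultures, so that the spread between them may be technical.

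The libraries held 23788451 to 25982493 counts in the control group and 27523812 to 29104872 in the knockdown group. Values are CPM (counts scaled to a common library size) after TMM normalization, which corrects for differences in composition between libraries. CNOT7 itself stood at 178.7 ± 11.3 CPM (SD, n = 3) in control and 43.1 ± 4.31 CPM (SD, n = 3) in knockdown libraries, and 24.1% was left. Of the 12 markers of colorectal epithelium, 7 exceeded 1 CPM in every library, led by KRT8. The summed level was 4929 to 5294 CPM in control and 4604 to 5102 CPM in knockdown libraries. Most of it came from the keratins KRT8 and KRT18, with means of 2750 and 2025 CPM in control libraries. The markers KRT20, CDH17, CDX1, LGALS4 and GPA33 were near 0, with control means from 0 (CDX1) to 0.566 CPM (CDH17). Their knockdown means ran from 0.036 (KRT20) to 0.915 CPM (CDH17). Of the 9 tested epithelial markers, 3 were higher and 1 was lower with knockdown, a share called of 44.4% beside 25.2% of all tested genes. The summed markers of other cells were low in both groups. They reached 9.07 to 10.9 and 10.4 to 12 CPM for the 8 fibroblast genes, of which 3 (COL3A1, DCN and FAP) had no count in any library, 1.72 to 2.33 and 2.89 to 3.59 CPM for the 5 endothelial genes, and 2.28 to 3.63 and 3.80 to 4.4 CPM for the 6 blood cell genes. Their part in the results was not tested.

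The stretches of 250 bases before the start of 4 members are shown as examples. MSX1 and MSX2 are the homeobox genes of the set, and BMP4 and BAMBI are the only members with the motif GGCGCC described below. Other members, such as ID2 and ID3 or SMAD7 and SMAD6, also changed in opposite directions, and their windows are not printed. A link between these sequences and the changes with knockdown was not tested. The stretches were taken from RefSeq on GRCh38.p14 and read 5′ to 3′ on the strand of the gene. The starts are those of RefSeq and can differ from the gene coordinates of the count table given below. The windows of MSX2 and BAMBI overlap those coordinates in part, and the BMP4 window lies within them. Capitals mark GGCGCC, a palindrome known as a GC-rich element for SMAD1 and SMAD5, and the CCAAT box on either strand (ATTGG when it is read on the other one). The windows are chr4:4859415-4859664 (plus strand) for MSX1, chr5:174724332-174724581 (plus strand) for MSX2, chr14:53955051-53955300 (minus strand) for the first of 3 BMP4 starts, and chr10:28677271-28677520 (plus strand) for BAMBI.
MSX1: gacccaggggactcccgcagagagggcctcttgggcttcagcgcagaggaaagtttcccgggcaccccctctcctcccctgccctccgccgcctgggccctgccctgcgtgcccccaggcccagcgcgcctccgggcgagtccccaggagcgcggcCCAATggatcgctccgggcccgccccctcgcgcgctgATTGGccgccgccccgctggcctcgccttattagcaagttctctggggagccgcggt
MSX2: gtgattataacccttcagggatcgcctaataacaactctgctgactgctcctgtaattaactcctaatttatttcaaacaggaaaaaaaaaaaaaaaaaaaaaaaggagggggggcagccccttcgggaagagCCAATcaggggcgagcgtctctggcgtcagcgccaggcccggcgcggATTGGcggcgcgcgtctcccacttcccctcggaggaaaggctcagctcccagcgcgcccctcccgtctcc
BMP4: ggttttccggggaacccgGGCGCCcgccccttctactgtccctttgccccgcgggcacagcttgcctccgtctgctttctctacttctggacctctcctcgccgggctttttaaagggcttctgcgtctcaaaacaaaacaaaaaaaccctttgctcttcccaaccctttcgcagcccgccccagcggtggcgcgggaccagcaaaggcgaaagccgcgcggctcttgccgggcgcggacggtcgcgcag
BAMBI: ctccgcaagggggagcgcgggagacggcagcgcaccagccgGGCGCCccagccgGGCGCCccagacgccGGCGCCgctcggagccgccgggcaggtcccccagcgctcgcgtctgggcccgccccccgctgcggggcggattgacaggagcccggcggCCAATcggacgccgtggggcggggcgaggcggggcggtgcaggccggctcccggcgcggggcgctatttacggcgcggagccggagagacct

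All 10 members had such a window in RefSeq, 14 in all, since BMP4 and SMAD7 have several starts. GGCGCC was found 3 times before BAMBI, at positions -209, -196 and -181 from the start (the base before the start is -1), and 1 time before BMP4 at -232. The other 8 members had none in their windows. Counted by window, GGCGCC was in 2 of the 14 member windows and in 16.4% of the 35116 windows of the same length. The shorter SMAD binding element GTCTG, searched on both strands, was present for 4 members (ID3, SMAD7, BAMBI and BMP4). GTCTG was in 6 of the 14 member windows and in 38% of all windows. The CCAAT box was present for 5 members (MSX1, MSX2, ID1, ID2 and BAMBI), with 2 boxes each for MSX1 and MSX2. CCAAT was in 5 of the 14 member windows and in 32% of all windows. The TATA box TATAAA, searched on both strands, was found before ID1 and before the second SMAD7 start. Before ID1 a match on each strand overlapped the other at -33 and -31. TATAAA was in 2 of the 14 member windows and in 10.7% of all windows. The member windows thus held these motifs about as often as all windows. The windows of MSX1, with 74% G and C, and MSX2, with 55.6%, each held 2 CCAAT boxes and lacked both SMAD motifs. Sites farther from the start were not searched, so that a member without a motif here may have it elsewhere.

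MSX1 and MSX2 are closely related homeobox transcription factors, best known from the development of teeth, skull and limbs. MSX1 (ENSG00000163132, chromosome 4, 4859666 to 4863936 on GRCh38) had 217.3, 190.4 and 217.0 CPM in control libraries 1 to 3 and 62.2, 62.6 and 67.0 CPM in knockdown libraries 1 to 3. Every knockdown library lay far below every control library. In RNA from bulk cells, fewer cells that express a gene and less RNA per cell cannot be told apart. The mean was 208.2 ± 15.4 CPM (SD, n = 3) against 63.9 ± 2.62 CPM (SD, n = 3), so that 30.7% of the control level was left. MSX1 had the lowest log2 fold change of the members, -1.70 (SE, the standard error, 0.064). Only 0.791% of the 17574 tested genes had a larger absolute log2 fold change, and MSX1 was number 33 among the genes ordered from the lowest.

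MSX2 (ENSG00000120149, chromosome 5, 174724533 to 174730893) moved the other way. It had 22.6, 21.4 and 22.5 CPM in the control libraries and 31.3, 29.1 and 29.9 CPM in the knockdown libraries, without overlap. The log2 fold change was 0.44 (SE 0.0752). Per kilobase of gene length, MSX1 stood at 98.2 ± 7.29 and MSX2 at 9.78 ± 0.302 CPM per kb (SD, n = 3) in control cells, a ratio of 10 ± 0.444. With knockdown the levels were 30.2 ± 1.24 and 13.3 ± 0.49 CPM per kb (SD, n = 3), and the ratio was 2.27 ± 0.137. The sum of both genes was 108.0 ± 7.59 CPM per kb in control and 43.4 ± 1.22 CPM per kb in knockdown libraries, so that the sum followed MSX1.

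**Figure D1:**
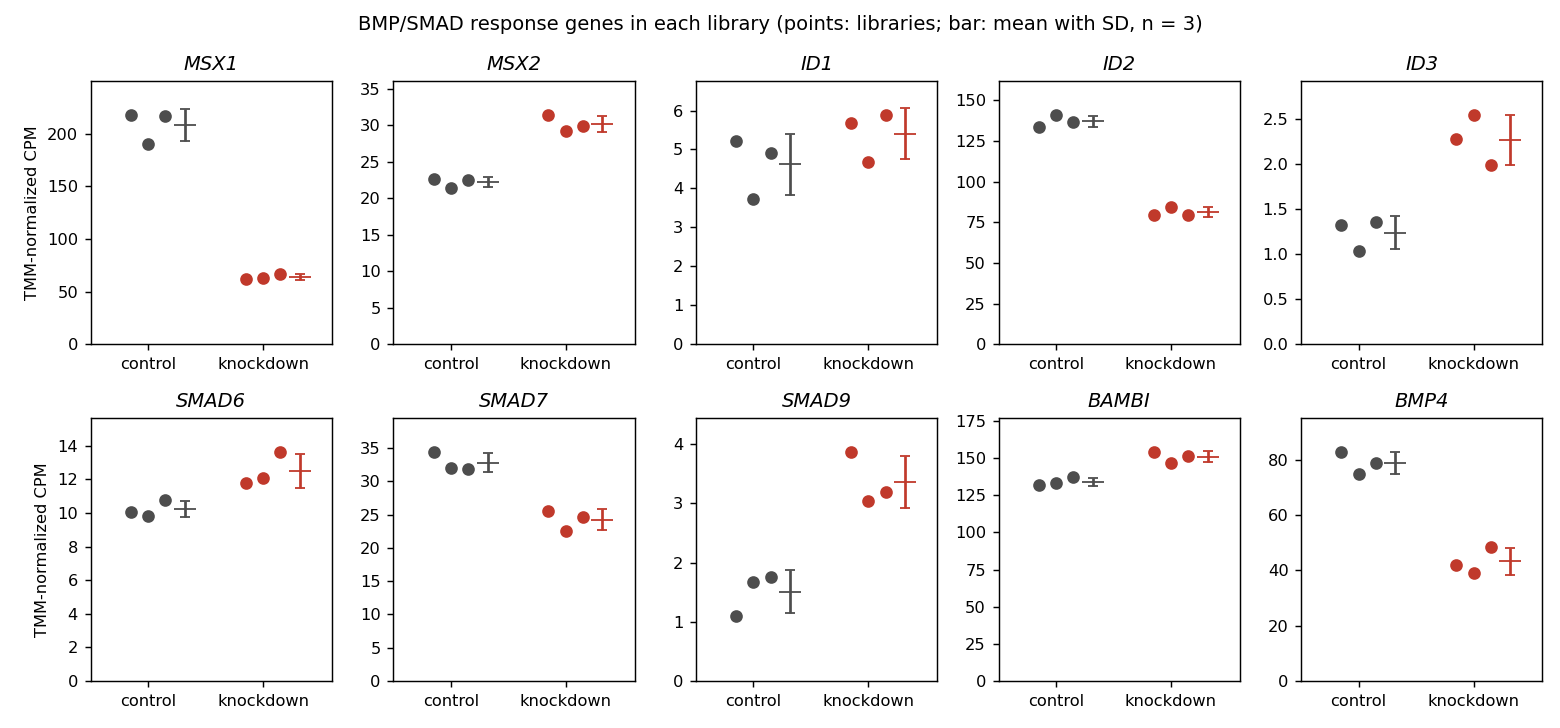
TMM-normalized CPM (vertical axes, each from 0) of the 10 members in the 3 control (grey) and 3 knockdown (red) libraries, with the mean and SD beside the points. The groups do not overlap for any gene except ID1, and MSX1, ID2, SMAD7 and BMP4 are lower with knockdown.

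The ID genes lack a DNA-binding region and act by pairing with E proteins. ID2 (ENSG00000115738, chromosome 2, 8678845 to 8684453) was by far the most abundant of them. It had 133.8, 140.8 and 136.6 CPM in the control libraries and 79.3, 84.7 and 79.6 CPM in the knockdown libraries. All knockdown values lay below all control values, with a log2 difference of -0.76 (SE 0.0562) and 59.2% of the control level left. Of its exonic bases, 1.72% overlap the antisense gene ID2-AS1, and no exon of any other member overlaps an annotated gene.

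ID3 (ENSG00000117318, chromosome 1, 23557918 to 23559794) was low and pointed the other way. Its counts were 34, 24 and 34 in control and 64, 70 and 59 in knockdown libraries, or 1.24 ± 0.179 CPM (SD, n = 3) against 2.26 ± 0.278 CPM (SD, n = 3). The groups did not overlap, and the log2 fold change was 0.86 (SE 0.223). ID1 (ENSG00000125968, chromosome 20, 31605283 to 31606515), the most widely used readout of BMP signalling, had 5.21, 3.74 and 4.91 CPM in control libraries and 5.68, 4.67 and 5.88 CPM in knockdown libraries. The ID1 groups overlapped, since knockdown library 2 lay below control libraries 1 and 3. Its log2 fold change of 0.22 came with an SE of 0.154, and ID1 was the only member that did not pass the threshold used for all genes, an adjusted p under 0.05. Per kilobase, ID2 made up 93.3 ± 1.17% of the 3 ID genes in control and 86.7 ± 1.2% in knockdown libraries (SD, n = 3). Their sum was 66.6 ± 0.897 CPM per kb in control and 42.5 ± 0.998 CPM per kb in knockdown libraries, so that it followed ID2.

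**Figure D2:**
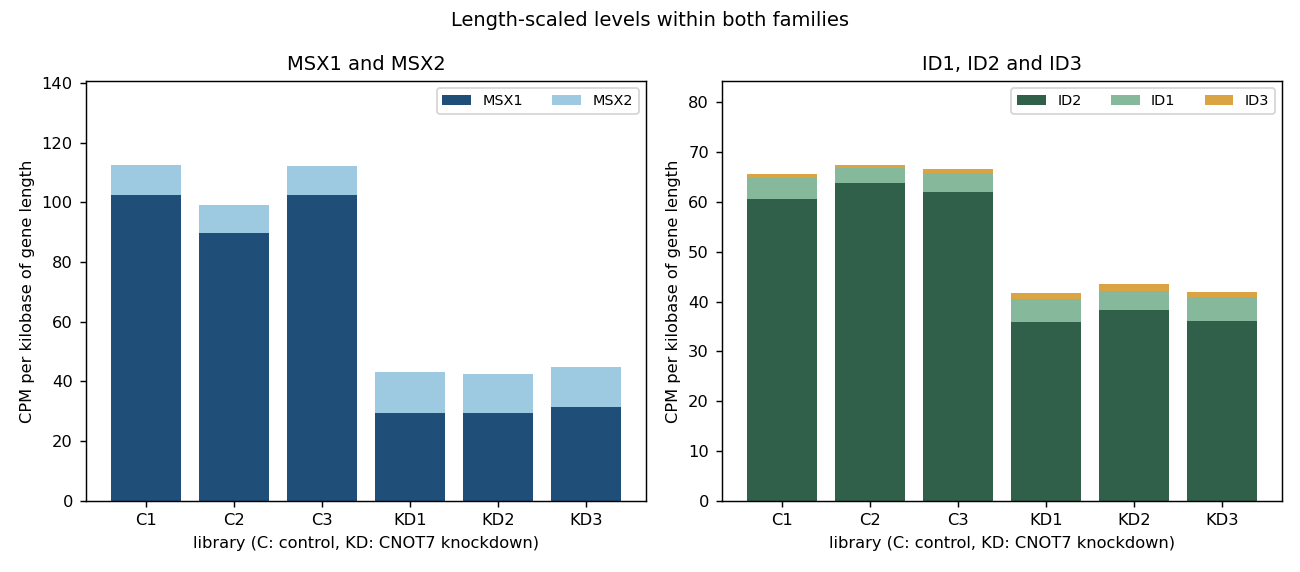
CPM per kilobase of gene length in each library (C, control; KD, CNOT7 knockdown), stacked for MSX1 and MSX2 (left) and for ID1, ID2 and ID3 (right), on axes from 0. MSX1 made up 90.9% of the MSX level in control and 69.4% in knockdown libraries, and ID2 stayed the main ID gene in all 6.

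SMAD6 and SMAD7 are the inhibitory SMADs. SMAD7, which blocks both BMP and TGF-beta receptors, and SMAD6, which acts mainly on BMP receptors, went in opposite directions. SMAD7 (ENSG00000101665, chromosome 18, 48919853 to 48952052) had 34.4, 32.1 and 31.8 CPM in control and 25.6, 22.5 and 24.6 CPM in knockdown libraries. The groups were separate, and the log2 fold change was -0.44 (SE 0.0776). SMAD6 (ENSG00000137834, chromosome 15, 66702228 to 66782848) had 10.1, 9.85 and 10.8 CPM in control and 11.8, 12.1 and 13.6 CPM in knockdown libraries. These values did not overlap either, but the gap was narrow, and the log2 fold change of 0.29 (SE 0.102) passed the threshold in only 3 of 12 alternative analyses. The length-scaled ratio of SMAD7 to SMAD6 was 5.46 ± 0.396 in control and 3.31 ± 0.338 in knockdown libraries (SD, n = 3).

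SMAD9, which codes for SMAD8, is the least abundant of the receptor-regulated SMADs of the BMP branch in these cells. SMAD9 (ENSG00000120693, chromosome 13, 36844831 to 36920765) had 28, 39 and 44 counts in control and 109, 84 and 95 counts in knockdown libraries, with no overlap. This was 1.51 ± 0.364 CPM (SD, n = 3) against 3.37 ± 0.439 CPM (SD, n = 3), which is 1.16 on the log2 scale (SE 0.213), the highest of the members. Its relative spread in the control group was the largest of the members, with an SD of 24.1% of the mean. The 308 tested genes of chromosome 13 had a median log2 fold change of 0.12, with 78 higher and 22 lower genes. Over all tested genes the median was 0.00393, with 13.3% called higher and 11.9% called lower. The part of the chromosome 13 shift in the SMAD9 value was not tested.

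BAMBI codes for a pseudoreceptor that resembles type I receptors but lacks the kinase. BAMBI (ENSG00000095739, chromosome 10, 28677342 to 28682939) had 131.8, 133.1 and 137.2 CPM in control and 154.1, 146.9 and 151.5 CPM in knockdown libraries. The groups did not overlap, yet the difference was the smallest of the members, with a log2 difference of 0.17 (SE 0.0528), and it passed the threshold in 6 of 12 alternative analyses. BMP4 is a ligand of the pathway and is itself secreted by many epithelial and mesenchymal cells. BMP4 (ENSG00000125378, chromosome 14, 53949736 to 53958761) had 82.7, 74.9 and 78.8 CPM in control and 41.9, 39.1 and 48.6 CPM in knockdown libraries, so that every knockdown library lay well below the controls. The log2 fold change was -0.87 (SE 0.0766), with 54.8% left. Per kilobase, the ratio of the ligand BMP4 to the inhibitor BAMBI was 0.442 ± 0.0262 in control and 0.215 ± 0.0223 in knockdown libraries (SD, n = 3).

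In all, 5 members were past the threshold in the direction of higher expression (MSX2, ID3, SMAD6, SMAD9 and BAMBI) and 4 in the direction of lower expression (MSX1, ID2, SMAD7 and BMP4). Over all 17574 tested genes, 13.3% were called higher, 11.9% were called lower and 25.2% were called in either direction. The members' groups did not overlap for 9 of 10 genes, against 38.8% of all tested genes. These shares are printed side by side only, since the members were named with this comparison in view. The median log2 fold change was 0.20 over the members and 0.00393 over all tested genes.

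**Figure D3:**
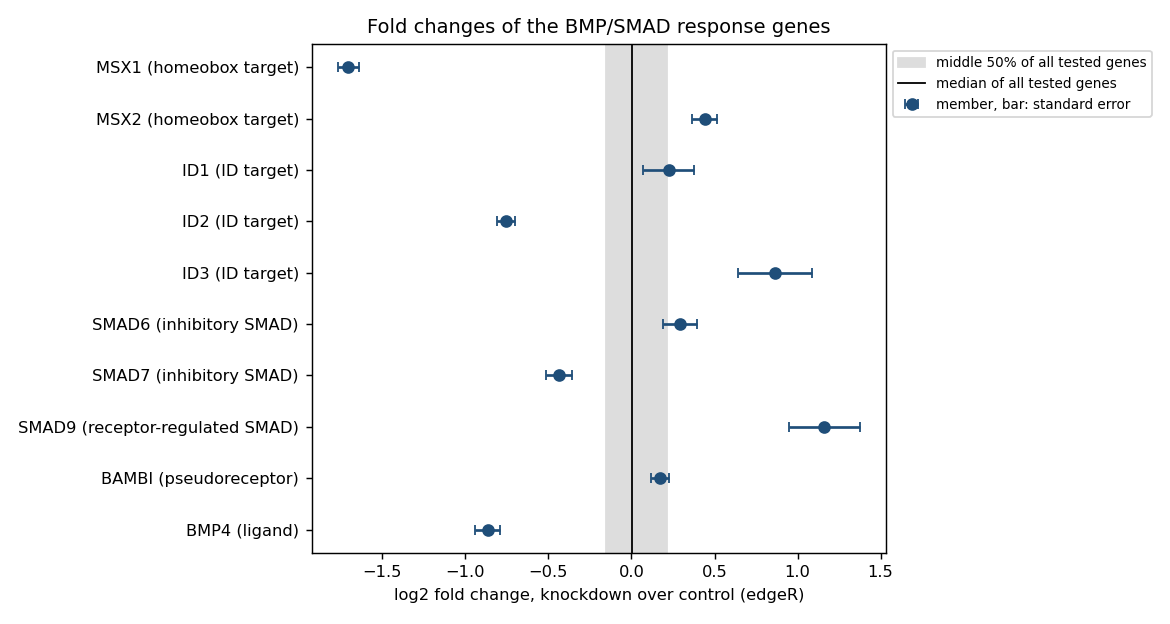
Log2 fold change of each member (points) with its SE (bars), against the median (line) and the middle 50% (grey, -0.15 to 0.22) of all tested genes. BAMBI lies within the grey band and the bars of ID1 and SMAD6 reach into it, whereas MSX1 at -1.70 and SMAD9 at 1.16 lie at the ends.

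The order of the members by level changed with knockdown. In control cells the length-scaled levels ran from MSX1 (98.2 CPM per kb) through ID2 (62.2), BAMBI (57.9), BMP4 (25.6), MSX2 (9.78), SMAD7 (6.51), ID1 (3.75), SMAD6 (1.19) and ID3 (0.688) to SMAD9 (0.263 CPM per kb), and no 2 neighbours overlapped between libraries. In knockdown cells BAMBI came first with 65.2 CPM per kb, followed by ID2 with 36.8 and MSX1 with 30.2. Further down, BMP4 (14 CPM per kb) overlapped MSX2 (13.3), SMAD7 (4.81) overlapped ID1 (4.39), and SMAD6 (1.46) overlapped ID3 (1.26 CPM per kb), so that the order within these pairs cannot be given. The summed level of the 10 genes was 266.0 ± 8.48 CPM per kb in control and 172.0 ± 3.21 CPM per kb in knockdown libraries (SD, n = 3).

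**Figure D4:**
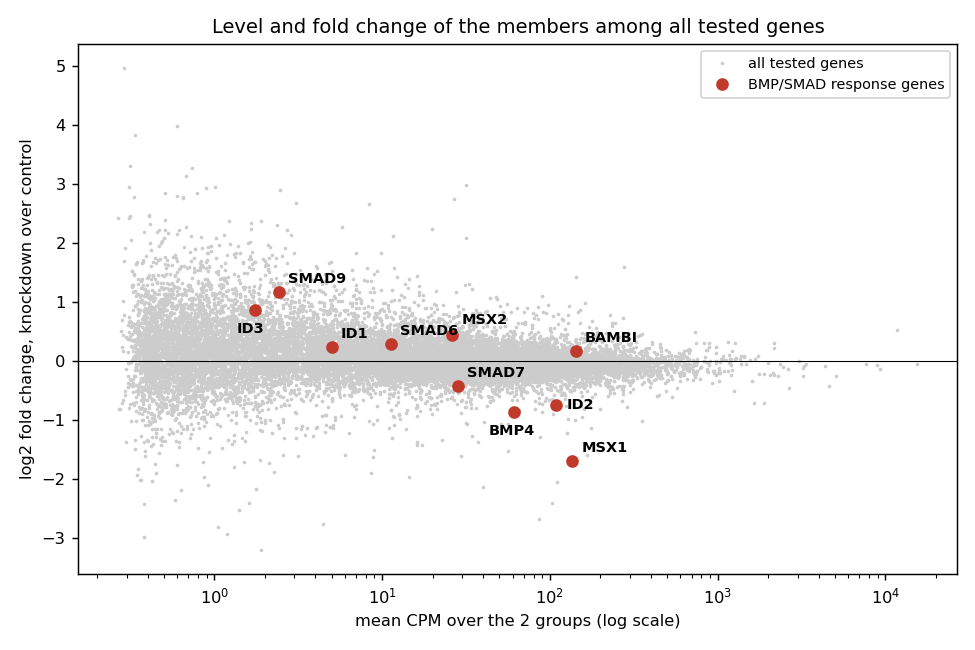
Mean CPM over the 2 groups (horizontal, log scale) against log2 fold change (vertical) for all 17574 tested genes (grey), with the 10 members in red. MSX1, with 208.2 CPM in control and 63.9 CPM in knockdown libraries, has the lowest fold change of the members. SMAD9 and ID3, the highest, are the least abundant by CPM.

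The 5 tested genes outside the set whose centred log2 CPM profile over the 6 libraries lay closest to that of MSX1 were ANKRD1, ARHGAP19-SLIT1, CST4, KRT81 and MARCH4. Their Euclidean distances from MSX1 were 0.244, 0.284, 0.318, 0.346 and 0.356, where the median gene had 2.11. ANKRD1, which codes for an ankyrin repeat protein of the nucleus and cytoplasm, went from 249.5 ± 4.11 to 82.6 ± 2.15 CPM (SD, n = 3). The readthrough gene ARHGAP19-SLIT1 was low, at 1.85 ± 0.0833 CPM in control and 0.257 ± 0.0545 CPM in knockdown libraries (SD, n = 3). Its log2 fold change was -2.83 (SE 0.316), against -1.70 for MSX1. The profiles used log2 of CPM plus 0.5, which shrinks differences at such levels, so that its small distance does not mean an equal fall. The other listed genes had log2 fold changes from -1.98 (MARCH4) to -1.59 (ANKRD1). ARHGAP19-SLIT1 shares 41.6% of its exonic bases with other genes. CST4 and KRT81 belong to families of similar genes, so that the counts of ARHGAP19-SLIT1, CST4 and KRT81 are less certain. Likeness over 6 libraries in 2 groups mostly reflects the difference between the groups.

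The wider pathway was read from lists drawn up by role, 103 genes in 8 lists, of which 77 had enough counts to be tested. Here the adjusted p-values of the edgeR quasi-likelihood fit over all genes (Benjamini-Hochberg) are given. These lists were also chosen with earlier results of these data known, so that the p-values and shares serve as a description. Of the 77 genes, 15 were higher, 13 were lower and 49 did not pass the threshold, a share called of 36.4% beside 25.2% of all genes. Their median log2 fold change was 0.00866.

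Among the 7 tested of 13 other BMP ligands, 3 rose and none fell, a share called of 42.9% beside 25.2% of all tested genes. BMP6, known as a regulator of iron metabolism, rose from 9.79 ± 0.888 to 23.5 ± 0.731 CPM (SD, n = 3), which is 1.26 on the log2 scale (SE 0.0935, adjusted p = 3.58e-08). BMP8B rose by 0.46 on the log2 scale (SE 0.0787, adjusted p = 3.54e-04). GDF7 rose by 1.68 (SE 0.388, adjusted p = 0.00399), but from a mean of only 0.284 CPM. BMP7, the ligand gene with the most CPM, had 221.0 and 209.4 CPM with a log2 fold change of -0.08 (adjusted p = 0.324), and BMP2 had 5.55 and 5.66 CPM (adjusted p = 0.896). Beside the lower BMP4, the ligand genes thus moved in both directions.

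Of 9 tested receptors and co-receptors, 1 rose and 8 did not pass the threshold, a share called of 11.1% beside 25.2% of all tested genes. The exception was the type II receptor ACVR2B, with a log2 difference of 0.23 (SE 0.0736, adjusted p = 0.0302), and it passed in 8 of 12 alternatives, where its adjusted p went from 0.00242 to 0.196. The type II receptor BMPR2 had 187.2 and 167.8 CPM in control and knockdown cells (log2 fold change -0.16, adjusted p = 0.0848), and the type I receptors BMPR1A and ACVR1 had log2 fold changes of -0.04 and -0.09 (adjusted p = 0.699 and 0.447). Among the 8 tested of 19 secreted antagonists and modulators, chordin (CHRD) rose by 0.55 on the log2 scale (SE 0.144, adjusted p = 0.00952), from 4.15 to 6.07 CPM. CHRD lost the threshold without control replicate 3 or without knockdown replicate 1, and its adjusted p was between 0.00172 and 0.071 over the alternatives. CRIM1, a membrane protein with chordin-like repeats that binds BMPs, fell from 220.6 ± 8.62 to 127.6 ± 4.49 CPM (SD, n = 3), which is -0.79 on the log2 scale (SE 0.0548, adjusted p = 1.64e-08). TWSG1 and NBL1 did not pass, at log2 fold changes of 0.05 and -0.14. In this list 1 gene rose and 1 fell, a share called of 25% beside 25.2% of all tested genes.

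CTDSPL, a phosphatase and the most abundant gene of the list of signal-carrying SMADs and their regulators (SMAD9 is a member and not in it), had 419.3 and 434.5 CPM and did not pass the threshold (log2 fold change 0.05, adjusted p = 0.522). SMAD5, SMAD1 and SMAD4 did not pass it either. SMAD5 had 221.0 ± 16.6 and 236.3 ± 18.2 CPM (SD, n = 3; log2 fold change 0.10, adjusted p = 0.305). SMAD1 had 16.5 and 15.8 CPM (log2 fold change -0.06, adjusted p = 0.646). SMAD1 and SMAD4 were chosen for mention after their values were seen. SMAD4, the common partner of all receptor-regulated SMADs, was counted 51, 45 and 55 times in control and 69, 65 and 59 times in knockdown libraries, or 2.04 ± 0.138 and 2.26 ± 0.247 CPM (SD, n = 3), with an adjusted p of 0.633. Per kilobase this was 0.155 and 0.172 CPM, where SMAD5 had 24.4 and 26.1. By CPM 25.7% of the tested genes stood lower than SMAD4, and by length-scaled level 4.75%. The length used for SMAD4, 13123 bases, spans 17 merged exons of all its annotated transcripts, which lowers its length-scaled level if shorter transcripts are expressed. Of its exonic bases, 7.37% are shared with another gene. Of the regulators, LEMD3, an inner nuclear membrane protein that binds SMADs, fell by 0.33 on the log2 scale (SE 0.0696, adjusted p = 0.00205), and the ubiquitin ligase NEDD4L fell by 0.25 (SE 0.0585, adjusted p = 0.00505). In total 2 of 11 tested genes of this list fell and none rose, a share called of 18.2% beside 25.2% of all tested genes.

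Of 14 tested genes known as BMP responsive outside the 10, 3 rose and 3 fell, a share called of 42.9% beside 25.2% of all tested genes. The homeobox gene DLX3, a relative of the MSX genes, rose from 9.73 ± 0.374 to 15 ± 0.494 CPM (SD, n = 3), which is 0.62 on the log2 scale (SE 0.0952, adjusted p = 1.25e-04). HES1, which is also the main target of Notch, fell by 0.71 on the log2 scale (SE 0.0865, adjusted p = 1.14e-05), whereas its relatives HEY1 and HEY2 rose by 0.68 and 0.35 (adjusted p = 0.0343 and 0.0214). The bone regulator RUNX2 fell by 0.17 (adjusted p = 0.0293), and TBX3 fell by 0.16 (adjusted p = 0.0486). These last 4 calls were the weakest of the list, passing in 5 (HEY1), 6 (HEY2), 7 (RUNX2) and 5 (TBX3) of 12 alternatives, with adjusted p-values up to 0.172, 0.0921, 0.14 and 0.155. Both tested E proteins, TCF3 and TCF12, which the ID proteins bind, did not pass, with log2 fold changes of -0.07 and -0.10 (adjusted p = 0.448 and 0.255).

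**Figure D5:**
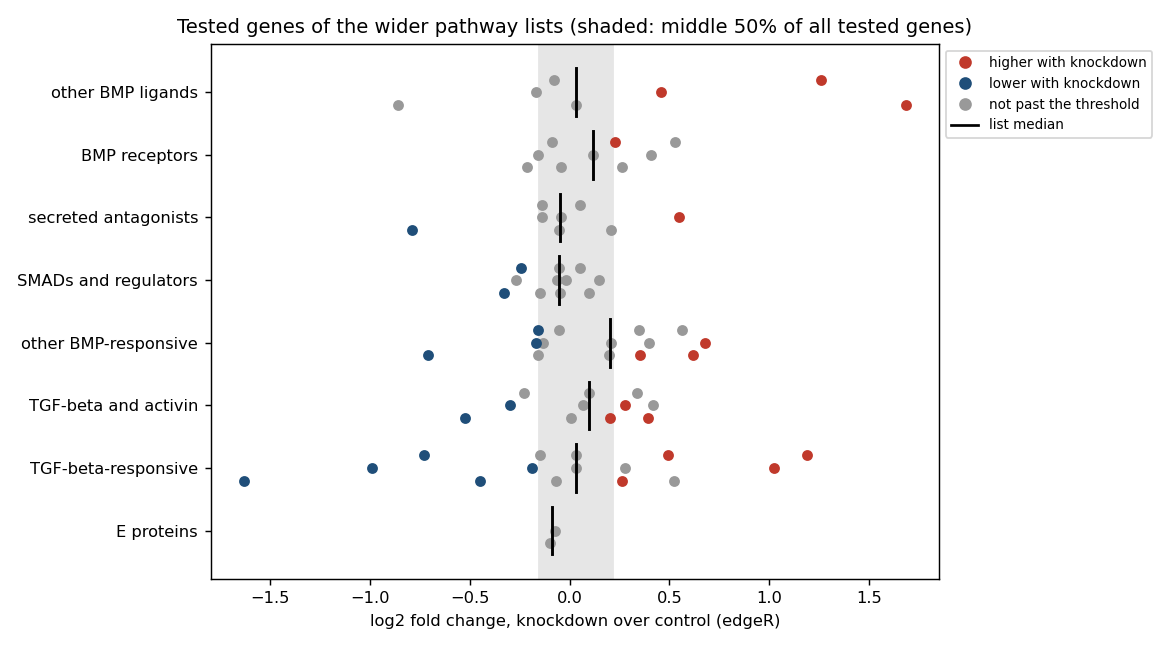
Log2 fold change (horizontal) of the tested genes of the 8 wider lists (rows), in red or blue where past the threshold, with the median of each list as a black bar and the middle 50% of all tested genes shaded. Higher and lower genes occur side by side among the antagonists (1 gene each), the BMP-responsive and the TGF-beta lists.

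In the TGF-beta and activin branch, which shares SMAD4, SMAD7 and BAMBI with the BMP branch, 3 of 11 tested ligands, receptors and SMADs rose and 2 fell. The share called was 45.5%, beside 25.2% of all tested genes. The type I receptors TGFBR1 and ACVR1B rose by 0.28 (SE 0.0673, adjusted p = 0.00601) and 0.20 on the log2 scale (SE 0.054, adjusted p = 0.0112). ACVR1B did not pass without control replicate 1 or without knockdown replicate 1, and its adjusted p lay between 9.99e-05 and 0.0611 over the alternatives. INHBB, a subunit of activin B, rose by 0.39 (adjusted p = 0.00124). The type II receptor TGFBR2 fell by 0.30 (SE 0.0632, adjusted p = 0.00224) and the ligand TGFB2 by 0.53 (adjusted p = 0.0063), with 26.6% of the exonic bases of TGFB2 shared with another transcript on the same strand. The ligand TGFB1 had 139.5 and 149.1 CPM (log2 fold change 0.10, adjusted p = 0.279). SMAD2 and SMAD3 had log2 fold changes of 0.07 and 0.01 (adjusted p = 0.503 and 0.927).

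Genes known to respond to TGF-beta were split as well, with 4 of 15 higher and 5 lower, a share called of 60% beside 25.2% of all tested genes. ANGPTL4, ITGB6 and KLF10 rose by 1.19, 1.02 and 0.26 on the log2 scale (adjusted p = 1.62e-05, 0.0036 and 0.00697), and 20.6% of the exonic bases of ITGB6 are shared with another gene on the same strand. CTGF, a matrix protein that is also a standard YAP target, fell from 13.3 ± 2.1 to 4.28 ± 0.246 CPM (SD, n = 3), which is -1.63 on the log2 scale (SE 0.131, adjusted p = 8.84e-08), close in size to that of MSX1. LTBP2 fell by 0.99 (adjusted p = 1.61e-09), THBS1 by 0.73 (adjusted p = 1.46e-06), PMEPA1 by 0.45 (adjusted p = 9.78e-05) and TGFBI by 0.19 (adjusted p = 0.00598), the last without passing once the trend with abundance was removed (adjusted p = 0.0662, the highest of its 12 alternatives, the lowest being 6.25e-06).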

How the data were processed

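For 6 libraries the authors deposited 1 table of unnormalized gene counts, with the length of each gene in bases. The submitters' processing notes list CASAVA 1.8, fastp, HISAT2 2.0.5, featureCounts 1.5.0-p3 and DESeq2 1.20.0 on GRCh38, and the strand setting is not given in the sources used here. Of 58735 gene IDs, 58724 had the same ID and position in GENCODE release 29. The 10 genes, the wider lists and the tests were chosen with earlier results of these data known.

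The fit used edgeR 4.0.16 under R 4.3.3. After filterByExpr, 17574 genes remained, TMM factors were set, and the quasi-likelihood test compared the 2 groups of 3. A gene was called at a Benjamini-Hochberg adjusted p under 0.05. SE was derived from the size of the fold change and the root of its F statistic. For profiles, log2 of CPM plus 0.5 was used. Replicates of a group differed by more than sampling noise in their counts, so that none was a copy.

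All members were named. From the wider lists, genes past the threshold (except 1 that is not reported here) and up to 4 others per list by mean CPM were named, and 5 genes by their distance to MSX1. SMAD4 and SMAD1 were added after their values were seen. The alternatives were DESeq2 1.42.0, RLE factors, no filter, a floor of 10 counts per library, replicate number as a block, cyclic loess offsets (limma 3.58.1) against the trend with abundance, and each library left out in turn. The steps were tested on simulated data. Motifs were searched in RefSeq windows, cut to the 250 bases before the start.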

Additional observations from a re-analysis of the deposited data

How the results depend on the processing

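No member changed direction in any of the 12 alternatives. MSX1, MSX2, ID2, ID3, SMAD7, SMAD9 and BMP4 passed the threshold in all of them, and ID1 in none. The log2 fold change of MSX1 lay between -1.77 and -1.65. SMAD6 did not pass with DESeq2 (0.28), RLE factors (0.28), no filter (0.27) or the trend with abundance removed (0.24), nor without any single library other than knockdown replicate 2, with values from 0.22 to 0.33. BAMBI did not pass with no filter (0.15), and with 1 library left out it had 0.14 to 0.19, passing only without knockdown replicate 2. The members called higher were therefore 3 with no filter and 3 to 5 with 1 library left out. The cause was not tested.

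Over all genes, the number called lower was 2095, and 1367 (without control replicate 3) to 2219 (without knockdown replicate 2) with 1 library left out. The replicate block gave 3306 lower and 3202 higher genes, against 2329 higher without it, and changed no call of the members. In the wider lists the block gave 22 higher and 18 lower genes, against 15 and 13 without it. The deviations of same-numbered libraries from their group means correlated at 0.0807, 0.333 and 0.00321 over 14715 genes, and knockdown library 3 correlated best with control library 1, so that the numbers were not taken as pairs. Low counts limit ID3 and SMAD9, with 24 to 109 counts per library. With the trend with abundance removed, ID3 went from a log2 fold change of 0.86 to 0.71 and SMAD9 from 1.16 to 1.02. ID1 went from 0.22 to 0.12 and SMAD6 from 0.29 to 0.24. BAMBI went from 0.17 to 0.23 and MSX2 from 0.44 to 0.45. Single wider-list genes lost the threshold in 34 refits, and none changed direction.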
